A study of Mus musculus with 12 samples.

Results

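The 24 genes described here are those whose RNA was less than 0.5 times the control level in both libraries of mouse 2-cell embryos depleted of Eif1ad3. They were selected on the measured values themselves: both control libraries had to reach 20 CPM (the reads of a gene scaled to the same fixed total in each library), and the larger of the 2 knockdown values had to be under 0.5 times the smaller of the 2 control values. Of 17866 genes listed, 5168 reached 20 CPM in both controls and 30 of these met the ratio, which is 0.58% of them. Another 6 symbols among the 30 were left out because they begin with Eif1ad, Fthl17, Rpl or Rps, so 24 remained. The same ratio turned around, with both knockdown libraries over 2 times both controls, was met by 15 genes.

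The series holds 12 labelled samples of mouse 2-cell embryos, of which 8 in 4 groups of 2 replicates (A and B) were used. In the knockdown experiment, the design text describes CF1 embryos at the 1-cell stage that received mRNA for RfxCas13d alone (control, genotype label WT) or with guide RNA (knockdown, genotype label Eif1ad3_KD), so both groups carried the nuclease. The treatment protocol of the samples describes it otherwise, as oocytes that received Cas13d protein together with morpholino oligos, either control ones or ones antisense to Eif1ad3, and the labels do not settle which was used. In the RNA immunoprecipitation experiment, mRNA for His-tagged Eif1ad3 was placed in zygotes at 200 ng/uL, and RNA was recovered at the 2-cell stage with an anti-His antibody (His) or with non-specific IgG. The His and IgG libraries both carry the genotype label Eif1ad3_OE, the design text counts 200 cells per replicate, and no strain is given for them. Nothing in the labels says that replicates were separate collections of embryos, so p-values measure the spread between these samples, which may be technical.

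At the 2-cell stage the mouse embryo moves from RNA stored in the egg to RNA made from its own genome, a step called zygotic genome activation. Multicopy gene families that are nearly silent later, such as the Zscan4, Obox and Pramel families, are transcribed at this stage, while many maternal messages are being cleared. The Eif1ad genes are named for their resemblance to the translation initiation factor eIF1A, which helps the small ribosomal subunit find the start codon. A lower RNA level at this stage can reflect less transcription, faster loss of a stored message or a difference in stage, and in these bulk libraries fewer cells with a transcript and less RNA per cell cannot be told apart.

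The control and knockdown libraries held 18173916 to 27902514 reads each, and the His and IgG libraries 4678563 to 8364126. Eif1ad3 was at 839 and 663 CPM in the controls and at 277 and 377 CPM in the knockdown libraries, so the targeted RNA was lower in both. Its larger knockdown value was over 0.5 times its smaller control value, so Eif1ad3 itself did not meet the ratio. The summed level of 8 markers of the 2-cell stage, Eif1ad3 among them, was 4226 and 4004 CPM in the controls and 2698 and 3237 CPM in the knockdown libraries, and all 8 were detected in the 4 libraries. The summed level of 11 oocyte and maternal markers was 15970 and 13080 CPM in the controls against 22120 and 12810 CPM in knockdown A and B, so the knockdown libraries lay on either side of the controls. Cumulus cell markers, 4 of 10 listed, summed to 5.60 and 10.4 CPM in the controls and 13.9 and 3.74 CPM in the knockdown libraries, with Amh, Foxl2 and Ptx3 among those not listed and Has2 at 0 in knockdown B. Cyp19a1 was at 3.32 and 8.48 CPM in the controls and at 11.1 and 0.550 CPM in knockdown A and B. Blood and immune cell markers, 3 of 6 listed, summed to 27.4 and 19.8 CPM in the controls and 22.5 and 8.20 CPM in the knockdown libraries, with Lyz2 at 0 in both controls. Most of that sum was Hba-a1, at 24.6 and 18.7 CPM in the controls and 19.9 and 6.77 CPM in knockdown A and B. Blastocyst markers, 4 of 6 listed, summed to 18.4 and 24.5 CPM in the controls and 39.9 and 11.4 CPM in the knockdown libraries, with Krt8 at 0 in knockdown B. The part of these differences in the lower levels of the 24 genes was not tested.

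In a fit over all 13332 genes with limma, 0 genes (0.0%) differed between knockdown and control at a Benjamini-Hochberg adjusted p under 0.05, none of the 24 among them. The smallest adjusted p was 0.469, 726 genes had an unadjusted p under 0.05, edgeR called 0 genes and DESeq2 called 15. Of these 15, 14 were higher and 1 was lower in knockdown. A limma fit with a replicate block called 2 genes higher and 0 lower. Without knockdown A 1894 genes passed, 23 of the 24 among them, and without knockdown B 414 passed, 11 of the 24 among them; the 24 were chosen from these values, so nothing is read from those counts. The 24 genes are therefore described by their levels in each library, and no p-value is given for a contrast that chose them. In the knockdown libraries their mean level was 29.5% to 46.5% of the control mean, with a median of 37.7%. On the log2(CPM + 1) scale the difference, knockdown minus control, ran from -1.82 to -1.08 with a median of -1.36, beside 0.02 over all genes tested. The plot of the larger knockdown value against the smaller control value shows the 24 genes under the line of ratio 0.5.

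**Figure D1:**
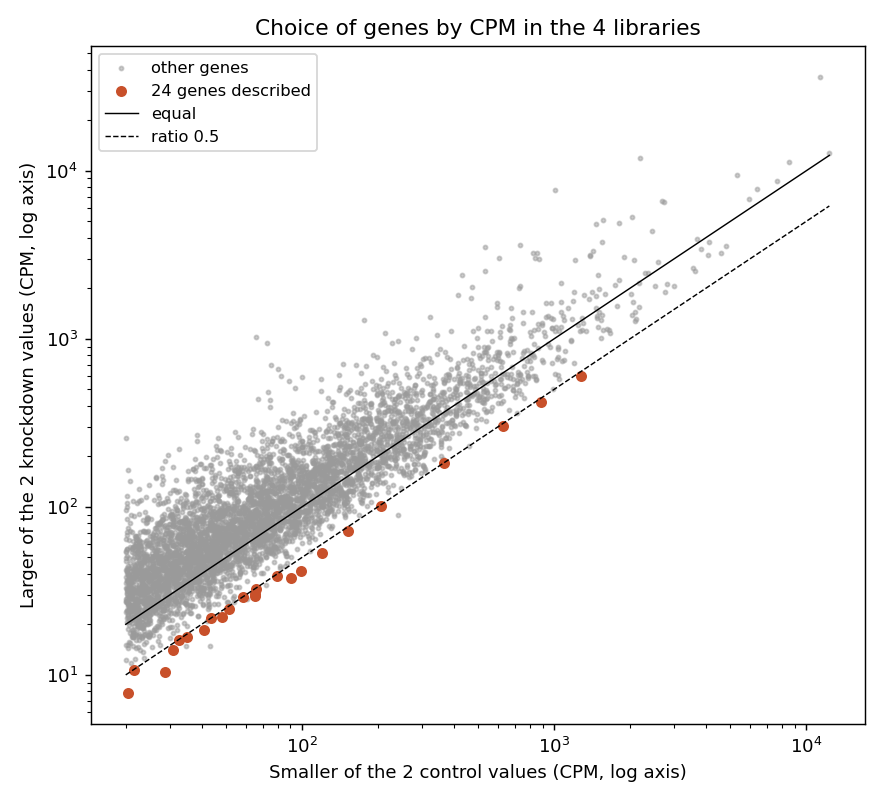
Larger of the 2 knockdown values against the smaller of the 2 control values, both in CPM on log axes, for the 5168 genes with both controls at 20 CPM or more; the 24 selected genes are in orange and the line marks the ratio of 0.5. Most of the selected genes lie close under the line, at levels from about 20 CPM upward. Snx30 and Uap1l1 lie farthest below it, with ratios of 0.362 and 0.379, and Sesn2 sits on its edge with a ratio of 0.4996. The grey points under the line are the 6 genes left out by symbol.

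Most of the 24 lay close under the threshold. The lowest ratio of the larger knockdown to the smaller control value was 0.362 for Snx30, followed by 0.379 for Uap1l1, 0.417 for Zfat and 0.421 for Frrs1. Just inside the threshold were Klhl11 and 4933404O12Rik at 0.494, Ntmt1 and Gm9176 at 0.497 and Sesn2 at 0.4996. Just outside it were Gm11841 at 0.502, Mexis at 0.505, Uqcc3 at 0.506, Glul at 0.509 and Hmgb3 at 0.510. Glul, which makes glutamine from glutamate and ammonia, was at 1109 and 987 CPM in the controls and 502 and 331 CPM in the knockdown libraries. Hmgb3, a chromatin protein that bends DNA, was at 760 and 715 CPM in the controls and 364 and 351.5 CPM in the knockdown libraries. These outside neighbours differ from the chosen genes by little more than where the line was drawn.

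The rule favours genes whose replicates are close together, since both knockdown libraries had to be low. Knockdown replicates of the 24 genes differed by a median of 1.204 times, from 1.01 to 2.58, beside 1.53 times over all genes with both controls at 20 CPM. Control replicates differed by a median of 1.18 times, from 1.02 to 1.56, beside 1.16 over the same background. For 12 of the 24 the knockdown replicates lay within 1.2 times of each other, and for Ntmt1, Gm9176 and Ric3 they differed by over 2 times. Knockdown B was the lower replicate in 17 of 24 genes, beside 59.4% of the background genes. The fewest reads behind any value was 123, far above the 3 reads that a count of 0 allows (0.108 to 0.165 CPM in this table), and where replicates nearly coincide, as the knockdown values of Uap1l1 (208 and 141 reads), their closeness is within counting error. The selection rests on all 4 libraries: 110 genes met the ratio without control A, 60 without control B, 651 without knockdown A and 48 without knockdown B.

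By RefSeq names (GRCm38.p6, used for names and promoter windows only, since the submitters' processing notes give GRCm39 for the files), 20 of the 24 are protein-coding genes, Gm5543 and Gm9176 are pseudogenes, 4933404O12Rik is a long non-coding RNA and LOC118567361 was not matched. Another gene overlaps 10 of them, and for 4 the overlapping gene codes for protein: Myo19 at Znhit3, Mmgt2 at Lrrc75a, Tub at Ric3 and Nt5c at Armc7. The strand setting of the counting is not given in the sources used here, so reads of overlapping genes cannot be told apart with certainty. These 4 protein-coding genes held fewer reads than the selected ones in the control and knockdown libraries, by little at Ric3 in knockdown B (8.91 CPM for Ric3, 8.09 CPM for Tub). Myo19, a mitochondrial myosin, was at 33.9 and 29.7 CPM in the controls and 26.9 and 11.6 CPM in the knockdown libraries. Tub, a protein of cilia and membranes, was at 10.6 and 5.42 CPM in the controls and 2.55 and 8.09 CPM in the knockdown libraries. Mmgt2 was at most 6.31 CPM and Nt5c at most 1.52 CPM in any of the 4 libraries.

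Promoter windows of 300 bases (250 before and 50 after an annotated start) were found in RefSeq for 16 of the 24 genes, 19 windows in all. The windows of 4 genes that passed the test of His against IgG described further on are shown because they span the range of the set, from a window with several kinds of matches to one with none. Capitals mark matches to any of the 11 short motifs searched, on either strand, and all 4 are printed 5′ to 3′ on the strand of the gene. The Hdac6 window lies at chrX:7947840-7948139 on the minus strand, Klhl11 at chr11:100472733-100473032 on the minus strand, Mgll (the first of its 2 windows) at chr6:88724162-88724461 on the plus strand and 4933404O12Rik at chr5:136918896-136919195 on the plus strand, all in GRCm38.p6.
Hdac6: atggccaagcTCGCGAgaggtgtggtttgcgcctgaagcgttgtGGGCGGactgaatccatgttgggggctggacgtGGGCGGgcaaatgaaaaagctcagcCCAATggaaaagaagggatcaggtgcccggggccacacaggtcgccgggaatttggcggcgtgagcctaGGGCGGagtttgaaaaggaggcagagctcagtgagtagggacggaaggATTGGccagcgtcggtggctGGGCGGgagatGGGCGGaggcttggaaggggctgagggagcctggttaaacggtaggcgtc
Klhl11: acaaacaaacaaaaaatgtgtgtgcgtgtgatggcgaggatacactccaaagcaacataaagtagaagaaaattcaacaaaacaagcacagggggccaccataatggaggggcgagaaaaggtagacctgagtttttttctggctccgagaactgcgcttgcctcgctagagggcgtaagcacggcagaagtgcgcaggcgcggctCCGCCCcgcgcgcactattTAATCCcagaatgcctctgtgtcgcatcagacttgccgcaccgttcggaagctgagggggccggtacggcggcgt
Mgll: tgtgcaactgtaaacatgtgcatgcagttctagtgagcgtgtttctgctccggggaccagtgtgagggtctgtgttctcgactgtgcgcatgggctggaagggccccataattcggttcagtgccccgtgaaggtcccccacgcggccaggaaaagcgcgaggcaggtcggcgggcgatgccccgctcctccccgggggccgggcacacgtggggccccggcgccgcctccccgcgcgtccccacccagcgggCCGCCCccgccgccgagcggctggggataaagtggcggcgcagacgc
4933404O12Rik: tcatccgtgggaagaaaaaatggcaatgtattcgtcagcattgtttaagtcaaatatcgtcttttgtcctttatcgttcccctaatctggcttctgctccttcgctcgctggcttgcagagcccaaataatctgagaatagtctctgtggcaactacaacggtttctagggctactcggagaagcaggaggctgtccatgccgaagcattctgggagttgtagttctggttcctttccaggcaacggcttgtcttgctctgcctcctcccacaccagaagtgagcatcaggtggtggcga
Hdac6 carries the GC box GGGCGG several times, the NF-Y box CCAAT and the palindrome TCGCGA. Klhl11 carries a GC box, read on the other strand, and the letters TAATCC bound by paired-type homeobox proteins of the OBOX kind. The Mgll window carries a GC box, and the 4933404O12Rik window holds none of the 11 motifs.

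Among the 19 windows, 11 held a GC box (57.9%), beside 62.5% of 5212 windows of genes with both controls at 20 CPM and 35.7% of all 32851 windows in the table. The NF-Y box was in 5 windows (26.3%), beside 39.3% and 37.4%. The ETS site, spelled CCGGAAG, was in 3 windows (15.8%, beside 19.8% and 8.86%). The GC box share lay nearer that of the other expressed genes than that of all windows. The TEAD site, spelled GGAATG, was in 3 windows (15.8%, beside 11.3% and 14.7%). TAATCC was in 2 windows, those of Klhl11 and Frrs1 (10.5%, beside 6.08% and 7.06%). TCGCGA was in 2 windows, of Hdac6 and Ntmt1 (10.5%, beside 6.6% and 2.5%). The TATA box, spelled TATAAA, was in the Eif3b window alone (5.26%, beside 7.02% and 13.6%). Further motifs were in 0 of 19 windows: the NRF1 half-site GCATGCG (7.41% of windows of expressed genes), the YY1 core AAGATGG (7.85%), the E2F site TTCCCGC (8.77%) and the NR5A2 site AAGGTCA (2.99%). With 19 windows these counts are small, and an absent match says only that the letters are not in the window. The E2F letters and the GC box read on the other strand can share bases. GC content of the windows ran from 46.0% to 72.3% with a median of 62.0%, beside 60.7% for windows of expressed genes and 52.7% for all, and the median ratio of observed to expected CpG was 0.678, beside 0.81 and 0.384.

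The set held 2 genes of the protein synthesis machinery. Znhit3, a zinc finger HIT protein that works with Nufip1 in assembling box C/D small nucleolar ribonucleoproteins, had the highest CPM of the 24, with 1277 and 1322 CPM in the controls and 592 and 597 CPM in the knockdown libraries. Its replicates were within a few percent of each other, and the knockdown mean was 45.8% of the control mean. Eif3b, the scaffold subunit of initiation factor eIF3, which brings messenger RNA to the small ribosomal subunit, was at 85.1 and 64.9 CPM in the controls and 30.2 and 25.2 CPM in the knockdown libraries, 36.9% of the control mean.

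The partners of these 2 genes, from lists of complexes drawn up after the 24 genes were known, did not all share their pattern. Of 10 other proteins of the box C/D particle and its assembly, 9 were lower and 1 was higher in knockdown, with log2 differences from -0.84 to 0.11 and a median of -0.48, and 0 passed the test of the fit over all genes. Snu13, a core protein of the particle, was at 2383 and 2179 CPM in the controls and 1549 and 1518 CPM in the knockdown libraries (log2 difference -0.57). Nop56 had the lowest difference of the 10, -0.84, and Nufip1 was at -0.27. Of 13 other eIF3 genes, 7 were lower and 6 higher, from -0.69 to 1.10, and 0 passed. Eif3e had the highest difference of the 13, 1.10, with 70.4 and 107 CPM in the controls and 128 and 272 CPM in the knockdown libraries. In the wider lists, 69 of 93 ribosome biogenesis genes tested were lower and 24 higher, with a median log2 difference of -0.36 beside 0.02 over all genes. Translation factors were lower in 41 and higher in 31 of 72, with a median of -0.06. None of the genes in either list passed the test.

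Both nuclear transport genes of the set belong to the traffic through nuclear pores. Nup155, a nucleoporin of the inner ring of the pore, was at 86.7 and 79.9 CPM in the controls and 38.1 and 39.0 CPM in the knockdown libraries, 46.3% of the control mean. Ipo4, an importin that carries histones and ribosomal proteins into the nucleus, was at 34.9 and 35.7 CPM in the controls and 16.8 and 13.9 CPM in the knockdown libraries, 43.4% of the control mean. Replicates of both genes were close within each group. The 4 other nucleoporins of the inner ring complex lay between -0.48 and 0.08 on the log2 scale, 3 lower and 1 higher. Among 10 other importins 7 were lower and 3 higher, from -1.12 for Ipo13 to 0.65 for Tnpo1. Ipo13 was low and its groups overlapped, at 1.64 and 7.07 CPM in the controls and 3.51 and 0 CPM in knockdown. Tnpo1 was at 56.0 and 71.8 CPM in the controls and 58.2 and 172 CPM in knockdown, so its value rests on knockdown B. Of 54 nuclear transport genes tested, 34 were lower and 20 higher, with a median of -0.17, and 0 passed the test.

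**Figure D2:**
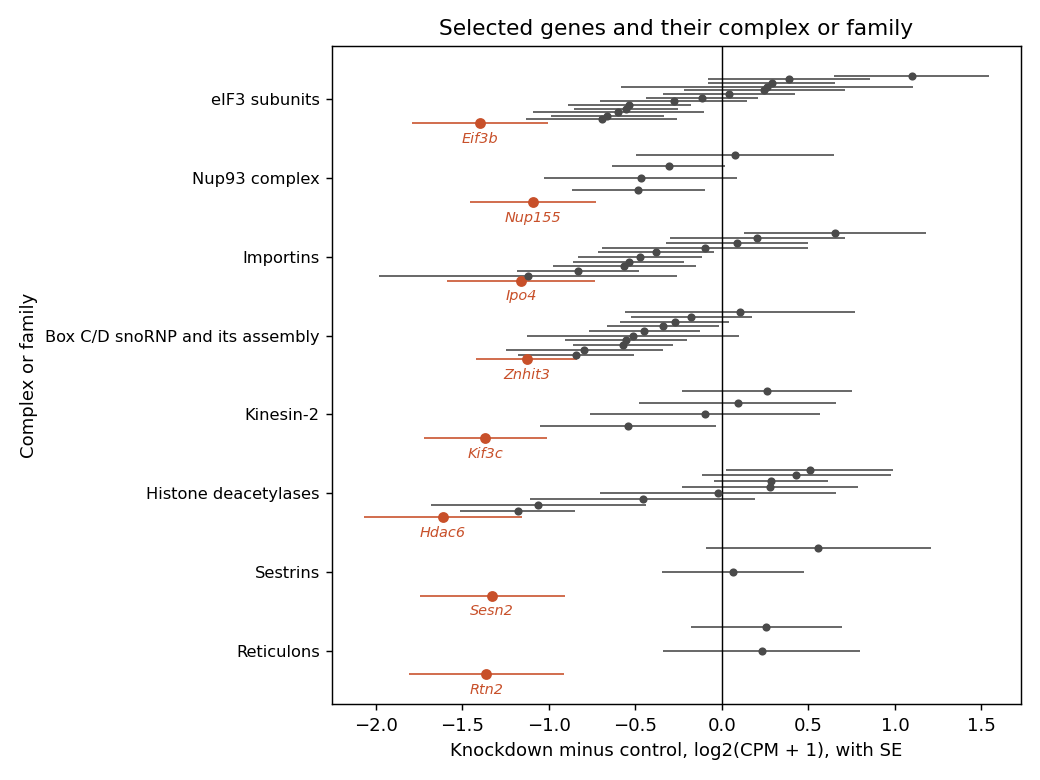
Log2 difference, knockdown minus control, on log2(CPM + 1), for the selected genes (orange) and for the other genes of their complexes or families (dark grey), grouped by set; bars are limma's SE. The selected gene is the lowest point in each set because it was chosen for that; the other eIF3 genes spread from -0.69 to 1.10, while 9 of the 10 other box C/D genes lie below 0.

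Enzymes and adaptors that modify proteins formed another part of the set. Ntmt1, which methylates the free N-terminus of proteins such as the chromatin-bound factor RCC1, was at 384 and 365 CPM in the controls and 181 and 70.3 CPM in the knockdown libraries. Its knockdown replicates were 2.58 times apart, the widest of the 24, and their mean was 33.6% of the control mean. Klhl11, a BTB-kelch adaptor of Cullin-3 ubiquitin ligases, was at 214 and 205 CPM in the controls and 101 and 80.8 CPM in the knockdown libraries, 43.5% of the control mean. Hdac6, a cytoplasmic deacetylase of tubulin and other proteins, was at 51.5 and 63.7 CPM in the controls and 24.6 and 13.2 CPM in the knockdown libraries, 32.8% of the control mean. Klhl11 replicates were closer together than those of Ntmt1 and Hdac6.

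The family of Hdac6 was divided, with 4 of 8 other deacetylase genes lower and 4 higher, and 0 passing the test. Hdac3, Hdac4, Hdac5 and Hdac10 were at most 7.81 CPM in any control or knockdown library, so little can be read from their signs. Hdac1, a nuclear deacetylase of histones, had the lowest difference of the 8, at 358 and 475 CPM in the controls and 200.4 and 164 CPM in the knockdown libraries (log2 difference -1.18). It was not selected because its larger knockdown value was over 0.5 times its smaller control value. Chromatin modifiers as a list were lower in 62 and higher in 55 of 117 genes, with a median of -0.03. Uap1l1, a paralog of the enzyme that makes UDP-N-acetylglucosamine, was at 28.0 and 20.5 CPM in the controls and 7.45 and 7.76 CPM in the knockdown libraries, 31.4% of the control mean. Uap1 itself was at 473 and 395 CPM in the controls and 326 and 327 CPM in the knockdown libraries (log2 difference -0.40).

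Another 6 genes act on the cytoskeleton, on membranes or on lipids. Kif3c, a motor subunit of the kinesin-2 family that moves cargo along microtubules, was at 157 and 120 CPM in the controls and 53.5 and 52.0 CPM in the knockdown libraries, 38.04% of the control mean. Frrs1, a membrane protein with ferric reductase activity, was at 110 and 99.0 CPM in the controls and 39.0 and 41.7 CPM in the knockdown libraries, 38.6% of the control mean. For both, the knockdown replicates nearly coincided. Mgll, the lipase that breaks down monoacylglycerols including the endocannabinoid 2-arachidonoylglycerol, was at 64.9 and 99.7 CPM in the controls and 29.0 and 29.4 CPM in the knockdown libraries, 35.5% of the control mean. Its spread lay in the controls, not in the knockdown libraries.

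Ric3, a chaperone that helps nicotinic acetylcholine receptors fold and assemble, had the lowest knockdown share of the 24, with 57.5 and 48.0 CPM in the controls and 22.2 and 8.91 CPM in the knockdown libraries (29.5% of the control mean). Rtn2, a reticulon that shapes tubules of the endoplasmic reticulum, was at 30.8 and 35.4 CPM in the controls and 14.0 and 10.7 CPM in the knockdown libraries, 37.4% of the control mean. Snx30, a sorting nexin of endosomal recycling, was at 28.6 and 33.5 CPM in the controls and 10.4 and 9.52 CPM in the knockdown libraries, and its gap between the groups was the widest of the 24 by the ratio. Relatives of these genes went both ways. The 4 other kinesin-2 genes split evenly, both other reticulons tested were higher (0.23 and 0.26), and Snx4 and Snx7 were at 0.20 and -0.12. Abhd6, another monoacylglycerol hydrolase, was at -0.68. In the list of cell cycle and mitosis genes, which holds Kif3c, 87 of 157 were lower and 70 higher, with a median of -0.07, and 0 passed.

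Stress sensing and transcription were each represented by 1 gene. Sesn2, a stress-inducible leucine sensor that restrains the growth kinase complex mTORC1, was at 43.5 and 59.8 CPM in the controls and 21.8 and 17.9 CPM in the knockdown libraries, 38.4% of the control mean. Sesn1 and Sesn3 were higher in knockdown by 0.56 and 0.07 on the log2 scale, neither passing the test. Zfat, a zinc finger and AT-hook transcription factor, was at 111 and 90.2 CPM in the controls and 37.6 and 26.6 CPM in the knockdown libraries, 32.0% of the control mean. The larger Zfat knockdown value was 0.417 times the smaller control value, the third lowest ratio of the 24.

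Atxn10, the gene whose expanded repeat in humans causes a spinocerebellar ataxia, was at 28.8 and 21.6 CPM in the controls and 10.6 and 6.77 CPM in the knockdown libraries, 34.6% of the control mean. Armc7, an armadillo repeat protein, was at 40.9 and 63.9 CPM in the controls and 18.5 and 18.2 CPM in the knockdown libraries, 35.1% of the control mean. Lrrc75a, a leucine-rich repeat protein, was at 65.8 and 67.6 CPM in the controls and 32.3 and 29.8 CPM in the knockdown libraries, 46.5% of the control mean. Of these genes Armc7 varied most between the controls, and none varied much between the knockdown libraries except Atxn10.

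**Figure D3:**
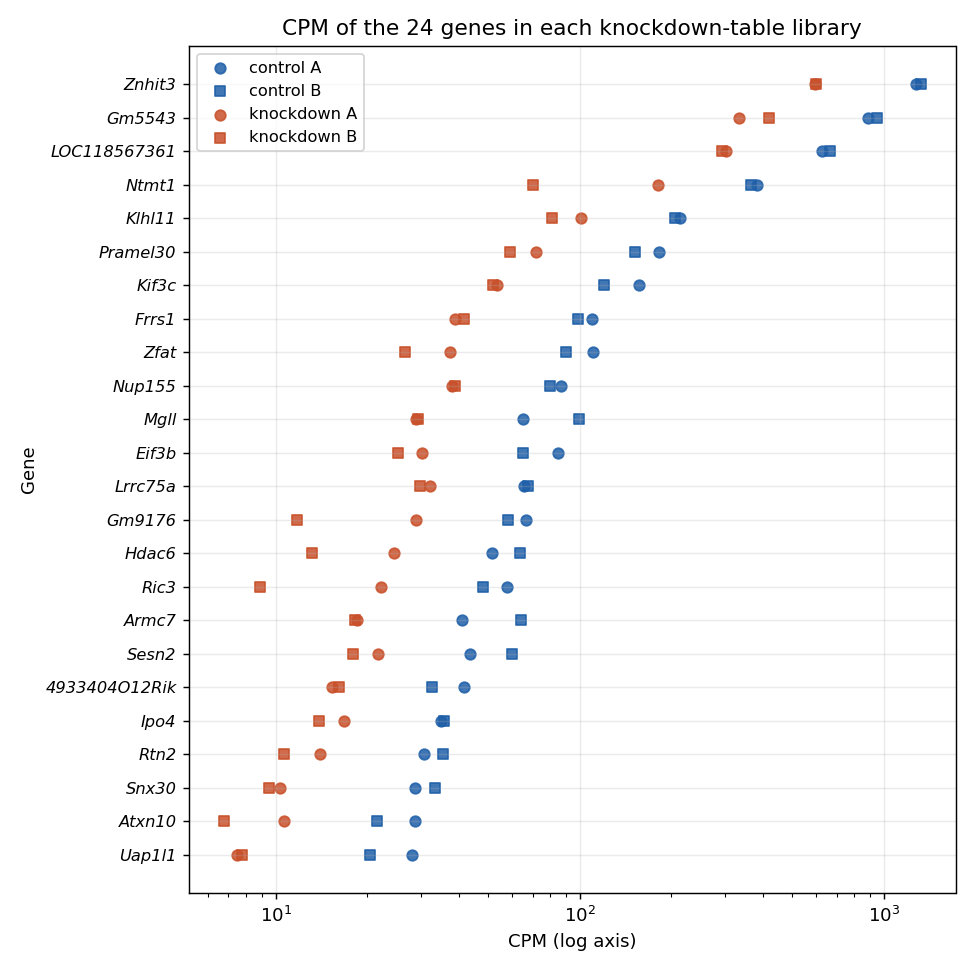
CPM of each of the 24 genes in control A, control B, knockdown A and knockdown B, on a log axis, 1 row for each gene. By the rule, both knockdown points of each gene lie left of both control points, and the knockdown replicates of Ntmt1, Ric3 and Gm9176 are the farthest apart.

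The remaining genes are a family member of the 2-cell stage, 2 pseudogenes, a long non-coding RNA and a predicted gene whose type was not matched. Pramel30, of the multicopy PRAME-like family, was at 183 and 152 CPM in the controls and 71.6 and 58.9 CPM in the knockdown libraries, 39.0% of the control mean. In the list of families transcribed at the 2-cell stage, 69 of 113 genes were lower and 44 higher, with a median of -0.16, and 0 passed. The summed 2-cell markers were lower in both knockdown libraries too, and their part in the Pramel30 value was not tested. Reads of near-identical Pramel copies cannot be assigned with certainty.

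Gm5543, a pseudogene, was the second highest of the 24 in CPM, with 886 and 948 CPM in the controls and 334 and 419 CPM in the knockdown libraries, 41.1% of the control mean. LOC118567361, a predicted gene, was at 628 and 667 CPM in the controls and 303 and 294 CPM in the knockdown libraries, 46.2% of the control mean. Both were among the most read of the set. Gm9176, the other pseudogene, was at 66.8 and 58.2 CPM in the controls and 29.0 and 11.8 CPM in the knockdown libraries, 32.6% of the control mean. The long non-coding RNA 4933404O12Rik was at 41.7 and 32.6 CPM in the controls and 15.3 and 16.1 CPM in the knockdown libraries, 42.3% of the control mean. Pseudogene reads can come from a parent gene, so these values are uncertain. Of 1268 genes with predicted or clone names tested, 536 were lower and 732 higher, with a median of 0.10, so names of this kind were not lower in general. Across 27 lists of functions, 7 held any of the 24 genes, 11 of the genes were in a list and 13 were in none.

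The immunoprecipitation libraries were not used to choose the 24 genes. All 24 had reads in both His libraries, while 6 had 0 reads in both IgG libraries, 9 in 1 of the 2, and 9 had reads in both. IgG libraries were thinner, with 12574 and 12217 of 19390 listed genes at 0, beside 5146 and 5313 in the His libraries. A count of 0 allows up to 3 reads, 0.359 to 0.641 CPM in these libraries, and without molecular identifiers that limit covers counting error only.

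In the limma fit over 11232 genes, 5 of the 23 genes tested (21.7%) rose in His over IgG at an adjusted p under 0.05, beside 35.7% of all genes, and 0 were lower, beside 0.917% of all genes. Over all genes the split was 4008 higher and 103 lower, but 1945 and 391 after quantile normalization, 4766 and 747 with DESeq2, 5620 and 1979 without IgG A and 6064 and 1615 without IgG B. To be tested a gene needed 1 CPM in 2 of the 4 libraries, and 7 of the 23 genes, like 38.2% of all genes tested, met this through the His libraries alone. Such genes had to lie higher in His. They make up 4 of the 5 called here (all but Hdac6) and 90.9% of the genes called higher in all, so the counts describe these libraries and support no statement of recovery. Both His libraries were above both IgG libraries for 10 of 23 (43.5%), beside 54.1% of all genes, and both were below for 1, beside 9.06%. Of the 23, 5 (21.7%) had 0 reads in both IgG libraries, beside 28.2% of all genes. The median log2 difference was 1.47, beside 2.01 over all genes, with 18 genes above 0 and 5 below. The order of these medians depends on the setting: without IgG B it was 2.92 beside 2.42, with no filter 1.55 beside 1.24, and with DESeq2 0.09 beside 1.30. Snx30 was not tested because a single library reached 1 CPM.

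Gm5543, Klhl11, Mgll, Hdac6 and 4933404O12Rik were the 5 that passed. Hdac6 was at 99.8 and 51.2 CPM in His A and B and at 0 and 1.71 CPM in IgG A and B. The log2 difference was 5.46 (SE 0.90, limma adjusted p = 0.0220). Gm5543 was at 29.3 and 69.7 CPM in the His libraries, 0.506 CPM (3 reads) in IgG A and 0 in IgG B. The log2 difference was 5.24 (SE 0.72, limma adjusted p = 0.0147). Both genes were high in both His libraries and nearly absent with IgG. Klhl11 was at 41.4 and 19.7 CPM in the His libraries, 0.338 CPM (2 reads) in IgG A and 0 in IgG B, a log2 difference of 4.68 (SE 0.59, limma adjusted p = 0.0129).

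Mgll was at 22.7 and 22.1 CPM in the His libraries and at 0 in both IgG libraries, at least 39.1-fold higher by the His mean than a floor of 3 reads per IgG library (38.5-fold on the lower His library; limma adjusted p = 0.00997). It had the closest His replicates of the 5. 4933404O12Rik was at 30.7 and 7.58 CPM in the His libraries and at 0 in both IgG libraries, at least 33.4-fold higher than that floor by the mean but 13.2-fold on His B (limma adjusted p = 0.0330). The promoter windows printed earlier belong to 4 of these 5 genes, and Gm5543 had no entry. The calls depend on the model: edgeR on the recovered reads called 0 of the 23 (7 at an unadjusted p under 0.05), DESeq2 called 9 higher and 1 lower (Uap1l1, adjusted p = 0.0110), quantile normalization left Mgll alone (adjusted p = 0.0292), 4933404O12Rik was lost with no filter (0.0552) and with a pseudocount of 5 (0.0913), and Hdac6 with a pseudocount of 0.1 (0.0644). With a replicate block Hdac6 was lost (limma adjusted p = 0.0544) and Ric3 was gained (limma adjusted p = 0.0419). Without IgG A 11 were called higher and 6 lower, without IgG B 13 higher and 4 lower, and without His A or His B, with the same 23 genes tested, 7 higher and 0 lower, among them 4 of the 5 but not Hdac6 (adjusted p = 0.138 and 0.113).

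Another 4 genes were at 0 in both IgG libraries without passing. Gm9176 was at 3.59 and 34.2 CPM in the His libraries, at least 33.0-fold over the floor by the mean but 6.25-fold on His A (limma adjusted p = 0.0998). Ric3 was at 2.63 and 10.5 CPM, at least 11.4-fold over the floor by the mean but 4.58-fold on His A (limma adjusted p = 0.0587). Pramel30 was at 5.86 and 1.26 CPM, at least 6.21-fold by the mean but 2.2-fold on His B (limma adjusted p = 0.104). Snx30 was at 0.478 CPM (4 reads) and 12.3 CPM. In each of these the His replicates were far apart. Frrs1 was at 21.3 and 10.5 CPM with His and at 0 and 1.92 CPM with IgG (limma adjusted p = 0.0566), and Nup155 at 10.4 and 12.9 CPM with His and 0 and 8.55 CPM with IgG (limma adjusted p = 0.369).

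**Figure D4:**
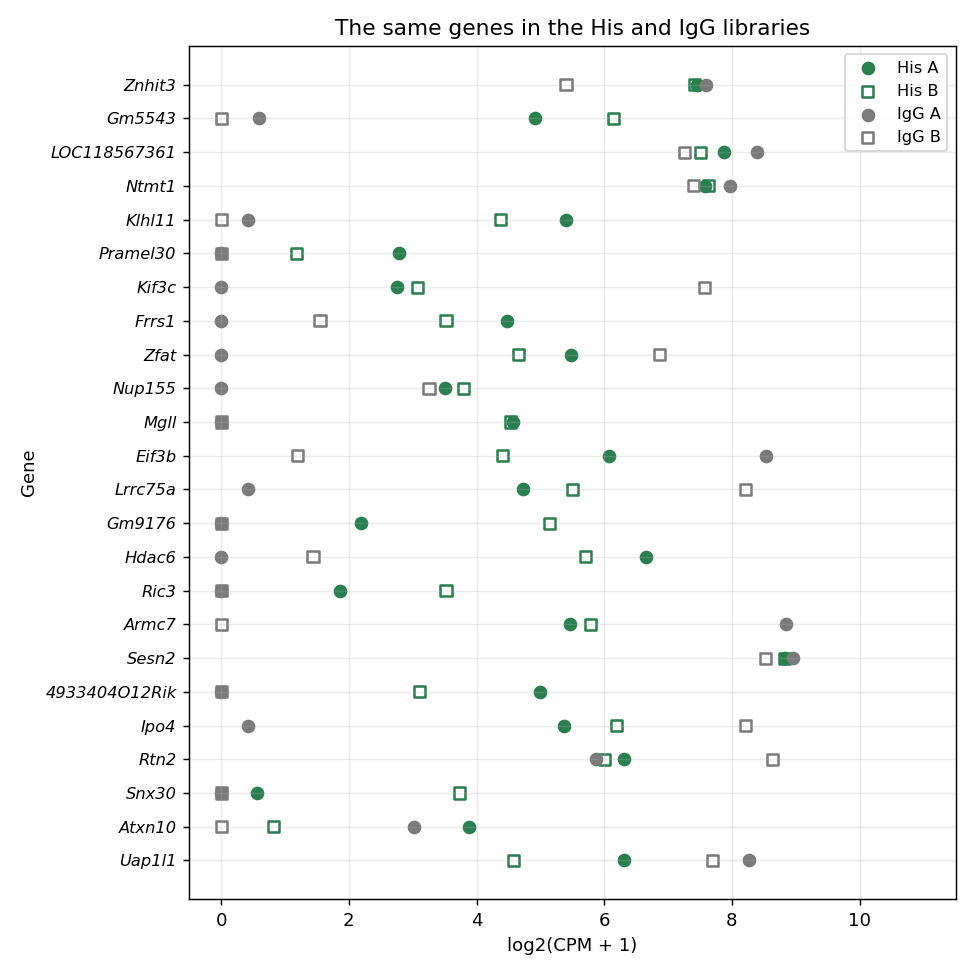
log2(CPM + 1) of each of the 24 genes in His A, His B, IgG A and IgG B, 1 row for each gene. The His points of Mgll and Sesn2 nearly coincide, while for Kif3c, Zfat, Lrrc75a, Ipo4, Eif3b and Armc7 the IgG points lie at opposite ends of the row.

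For 6 genes the IgG libraries disagreed, with 100 CPM or more in one and under 2 CPM in the other. The share over all genes was not counted, so the number is not read as a trait of the set. Genes outside the set split in the same way, such as Kpnb1 (0.169 and 147 CPM in IgG A and B) and Abhd6 (0 and 340 CPM). Kif3c was at 188 CPM in IgG B and 0 in IgG A, beside 5.74 and 7.45 CPM with His. Zfat was at 116 CPM in IgG B and 0 in IgG A, beside 43.5 and 24.3 CPM with His. These genes were high in 1 control immunoprecipitate, so no recovery over IgG can be read for them. Lrrc75a (296 CPM) and Ipo4 (294 CPM) were high in IgG B and at 0.338 CPM in IgG A, beside 25.3 and 44.3 CPM and 40.3 and 72.1 CPM with His. Eif3b was at 369 CPM in IgG A and 1.28 CPM in IgG B, beside 66.7 and 20.2 CPM with His. Armc7 was at 461 CPM in IgG A and 0 in IgG B, beside 43.2 and 53.9 CPM with His.

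Sesn2, Ntmt1 and LOC118567361 were read at high levels in all 4 immunoprecipitation libraries. Sesn2 was at 453 and 450.0 CPM with His and 497 and 366 CPM with IgG (log2 difference 0.08, SE 0.29, limma adjusted p = 0.881). Ntmt1 was at 191 and 197 CPM with His and 250.3 and 167 CPM with IgG (log2 difference -0.08, SE 0.49, limma adjusted p = 0.937). LOC118567361 was at 233 and 181 CPM with His and 334 and 152 CPM with IgG (log2 difference -0.13, SE 0.62, limma adjusted p = 0.912). For these 3 the groups overlapped, and a p that misses the threshold does not show that they were equal. Znhit3 was at 175 and 170 CPM with His and 192 and 41.3 CPM with IgG. Rtn2 was at 78.2 and 63.2 CPM with His and 57.4 and 396 CPM with IgG. Uap1l1 was the only one of the 24 with both His values, 78.0 and 22.9 CPM, below both IgG values, 307 and 207 CPM (log2 difference -2.54, SE 0.94, limma adjusted p = 0.139). Atxn10 was at 13.7 and 0.758 CPM with His and 7.09 and 0 CPM with IgG, low in 1 library of each group.

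The rank of a gene within its own table can be set beside its rank in the other, although the tables come from different embryos and were normalized separately. Of the 24 genes, 18 ranked lower by mean CPM in the His libraries than in the control libraries and 6 ranked higher, beside 63.2% lower among all 5168 genes with both controls at 20 CPM, which were chosen for a high control level as the 24 were. The widest gap in rank was that of Pramel30, at percentile 93.4 in the controls and 46.1 in the His libraries. Kif3c was at percentile 92.0 in the controls and 54.6 in the His libraries. Sesn2 moved the other way, from percentile 81.7 in the controls to 98.3 in the His libraries, and it was at percentile 97.9 with IgG. The high rank of Sesn2 was shared by both antibodies.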

How the data were processed

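RNA of mouse 2-cell embryos was sequenced as 150 bp paired-end reads after Smart-seq2 amplification without molecular identifiers, per the labels' protocols. The submitters' processing notes name Trim Galore 0.6.7, FastQC, HISAT2 2.2.1, featureCounts 2.0.1, edgeR and GRCm39. The annotation, filters and strand setting are not given in the sources used here. The deposited values are CPM, scaled by the authors to each library's reads. In each of the 8 libraries used, 100% of the values were whole multiples of 1 read (within 0.02 reads), which gave the reads and totals. Another 4 value columns, whose names do not decide the sample, were not used.

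The groups come from the sample titles. A gene entered a comparison where at least 2 of its 4 libraries reached 1 CPM. Differences of log2(CPM + 1) were fitted in R 4.3.3 by limma 3.58.1 (lmFit and a trended eBayes, two-sided, Benjamini-Hochberg over all genes tested, threshold 0.05). Fold changes on this scale understate the change of low genes, and SE is limma's moderated one. The fitting code was also run on simulated data, and that outcome is not given and supports no result here. The alternatives were other pseudocounts, filters and scalings, no trend, a replicate block, left-out libraries (for His also with the genes tested held fixed, chosen after seeing the data), and the recovered reads tested by DESeq2 1.42.0 and by edgeR 4.0.16.

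The 24 genes and all lists were chosen with earlier results of these data known. The genes named with values were by rule the 12 with the highest control level, the 12 with the lowest ratio, 5 on each side of the threshold, members of a function list and those passing in His against IgG; since these cover nearly all of the 24, the others are given too, and all partner and overlapping genes were chosen after their values were seen. Promoter sequences are from RefSeq on GRCm38.p6.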

Additional observations from a re-analysis of the deposited data

How the results depend on the processing

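The number of genes selected, 24, was 35 with a control minimum of 10 CPM, 15 with 50 CPM, 2 with a ratio under 0.4, 88 with a ratio under 0.6, 155 with group means compared, 57 after median rescaling (16 of the 24 shared), 29 after quantile normalization (18 shared), 22 with TMM scaling (17 shared) and 48 to 651 with 1 library left out. Genes called between knockdown and control, 0, numbered 15 with DESeq2, 2 with the replicate block and 0 to 1894 with 1 library left out; of the 24 they numbered 23 without knockdown A, 11 without knockdown B and 0 under the other alternatives. Those called between His and IgG, 4111, numbered 2356 at a mean of at least 5 CPM, 2336 after quantile normalization, 0 with edgeR (4592 at an unadjusted p under 0.05), 3894 with the replicate block and 6 to 7679 with 1 library left out. Of the 24 genes, the 5 called, all higher in His, were 1 after quantile normalization, 0 with edgeR, 10 with DESeq2 (9 higher, 1 lower), 7 with a pseudocount of 0.1 (4 of the 5, Hdac6 lost at adjusted p = 0.0644), 4 with a pseudocount of 5 and 4 with no filter (4933404O12Rik lost at 0.0913 and 0.0552), 5 with the replicate block (all higher; Hdac6 lost at adjusted p = 0.0544, Ric3 gained at 0.0419) and 0 to 17 with 1 library left out. The 17 were 11 higher and 6 lower without IgG A, and 13 higher and 4 lower without IgG B. The 0 arose without His A or His B, where the filter on low values left 15 and 16 of the genes and, of the 5 called, Hdac6 alone, so it does not show that the other calls were lost. With the genes tested kept as in the full comparison, an alternative chosen after seeing the data, 7 were called higher without His A and 7 without His B (4 of the 5 in each), and 3949 and 3946 of all genes. The spread then rests on the IgG libraries alone, which are both at 0 for several of these genes, and the lone library was assumed to vary like them. The cause of the other shifts was not tested.

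Some His-minus-IgG log2 differences changed sign, none of them of a gene that passed. With a pseudocount of 0.1 Kif3c was at 0.61, and with 5 Lrrc75a was at -0.0515 and Eif3b at -0.19. Median rescaling gave Sesn2 -0.33 and Eif3b -0.0788. Quantile normalization gave Ipo4 -0.17, Atxn10 -0.76, Ntmt1 0.42, Lrrc75a -1.19, Eif3b -1.19 and LOC118567361 0.41. With edgeR, Ipo4 was at -1.29, Zfat -0.67, Sesn2 -0.0444, Lrrc75a -1.99, Eif3b -2.33 and Armc7 -2.49. With DESeq2, Ipo4 was at -1.50, Zfat -0.87, Sesn2 -0.31, Lrrc75a -2.20, Eif3b -2.62 and Armc7 -2.79. With 1 library left out, Eif3b ran from -3.29 to 4.05, LOC118567361 from -0.70 to 0.43, Ipo4 from -2.43 to 5.36, Zfat from -1.80 to 5.07, Ntmt1 from -0.37 to 0.21, Lrrc75a from -3.10 to 4.69, Atxn10 from -0.69 to 2.37, Znhit3 from -0.16 to 2.03, Kif3c from -4.65 to 2.92, Sesn2 from -0.14 to 0.30, Rtn2 from -2.48 to 0.29 and Armc7 from -3.23 to 5.62. With the genes tested held fixed, Eif3b was at -0.455 without His A and LOC118567361 at 0.0492 without His B. The median over all genes, 2.01, was 1.79 after median rescaling, 0.72 after quantile normalization, 1.56 with edgeR, 1.30 with DESeq2, 3.66 and 0.94 with pseudocounts of 0.1 and 5, 1.24 with no filter, 1.76 at a mean of at least 5 CPM, 2.17 without IgG A and 2.42 without IgG B. The median of the selected genes, 1.47, was in the same order 1.28, 0.65, 0.37, 0.09, 2.83, 0.62, 1.55, 1.196, 2.01 and 2.92. Over the fewer genes left without His A or His B both medians over all genes were 0.82, and those of the selected genes were 0.92 and 1.00; with the genes held fixed they were 1.95 and 1.95 over all genes and 1.22 and 1.86 over the selected ones.

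Samples with the same letter had deviations from the group means correlated at 0.146 in the knockdown table and -0.014 in the immunoprecipitation table, and nothing says that a letter marks a shared batch, so they were not treated as paired. A comparison of input with total RNA was not run, because column names do not decide the sample. With 2 libraries a group and thin IgG libraries, depth limits what can be said of genes at 0 with IgG.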
